A study of Homo sapiens with 7 samples.

Results

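Olfactory receptor genes of chromosome 11 (chr11) were examined in HCT116, a human colorectal carcinoma line, as a large gene family best known from the nose. The members were the protein-coding genes on chr11, in the GENCODE annotation of hg19, whose symbol is OR followed by a number, 1 or 2 letters and a number. The rule uses names and positions only, and no value of the peak lists. It gave 171 genes of the 1317 protein-coding genes on chr11 and of 20176 protein-coding genes in all, and 6 coding genes with an OR symbol of another form were outside it.

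The study tested PIXUL-ChIP, in which chromatin is sheared by ultrasound in a 96-well plate. Cells were grown to 200000 per well, crosslinked and sheared, and chromatin of a single well was used for each antibody. Lists of peaks were available for 5 histone marks and for CTCF. Monomethylated H3K4 (H3K4m1) is found at enhancers and beside promoters, trimethylated H3K4 (H3K4m3) at active promoters and acetylated H3K9 (H3K9Ac) at active promoters and enhancers. Trimethylated H3K36 (H3K36m3) lies over the bodies of transcribed genes, trimethylated H3K27 (H3K27m3) is the Polycomb mark of repressed chromatin, and CTCF is a DNA-binding protein of insulators and loop anchors. The groups of the labels are these antibodies, each with 1 library labelled as HCT116, and the Methods describe no treatment of the cells for sequencing. There was thus no condition to compare and no replicate error to set against a difference.

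Olfactory receptors are G protein-coupled receptors of the sensory neurons of the nose, where each neuron expresses one receptor gene and keeps the others silent. Their genes lie in clusters of short genes that arose by tandem duplication. Class I receptors resemble those of fish, class II receptors make up the larger group, and in humans the class I genes lie together on chr11.

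Peaks are described at 2 levels. The first holds the peaks past the limits of the study's Methods, which ask for more than 2-fold enrichment and q below 1e-03 for H3K4m1 and H3K27m3, and for more than 5-fold enrichment and q below 1e-10 for the other histone marks. The Methods name no limit for CTCF, and the stricter pair was applied to it here. The second holds all deposited peaks, which reach down to a −log10 q-value of about 1. The window of a gene is its body with 5 kb on each side, and 1 shared base counted as overlap. Intervals are 95% Wilson intervals over genes, which cover counting error only, and genes of a cluster share peaks and are not independent.

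The labelled cell type was checked by H3K4m3 peaks within 1 kb of the transcription start site (TSS), which 59.1% of all protein-coding genes had. Of 10 markers of colon epithelium 8 had such a peak, among them EPCAM, CDH1, KRT8 and CDX2, while CDX1 and VIL1 had none. Of 10 markers of mature olfactory sensory neurons 2 had one, and they were GNAL and ADCY3. OMP, the olfactory marker protein, and CNGA2, a subunit of the olfactory cation channel, had none. No leukocyte marker of 3 and COL1A1 alone of 3 fibroblast markers had such a peak.

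The members were short genes with few CpG dinucleotides. Their median body was 1074 bp, against 21461 bp for the other 1146 coding genes of chr11, and 97 members had a single exon in the canonical transcript. There were 88 members on the plus strand and 83 on the minus strand, 55 of class I (families 51, 52 and 56) and 116 of class II. Within 500 bp of the TSS the members had a median of 6 CpG, with a median GC content of 39.5%. The other chr11 genes with H3K4m3 within 1 kb of the TSS had a median of 79 CpG there, and those without it 18. None of the 171 members, but 552 of 689 genes of the first kind and 76 of 457 of the second, exceeded both a GC content of 55% and an observed to expected CpG ratio of 0.65. The highest member was OR10Q1, a class II receptor gene, with 42 CpG, followed by OR52N2 with 29 and OR51D1 with 24. The olfactory receptor pseudogenes of chr11, 192 in number, had a median of 7 CpG, close to that of the members. For some members, among them OR52M1, OR52J3 and OR4B1, the annotated TSS is the first base of the coding span. Their CpG counts may not describe a promoter, and their TSS windows and distances are set on the coding start.

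The contrast in CpG is visible where a member lies closest to an H3K4m3 peak. OR2D3, a class II receptor gene on the plus strand of chr11:6942233-6943225, had its TSS 4961 bp from the H3K4m3 peak at chr11:6947194-6948869. That peak had a fold enrichment of 16.5 and contained the TSS of the zinc finger gene ZNF215, also on the plus strand. The 200 bases before each TSS (hg19, chr11:6942033-6942232 for OR2D3 and chr11:6947457-6947656 for ZNF215, plus strand) are shown with each CG in capitals, since the pair shares a window and differs in the mark.
OR2D3: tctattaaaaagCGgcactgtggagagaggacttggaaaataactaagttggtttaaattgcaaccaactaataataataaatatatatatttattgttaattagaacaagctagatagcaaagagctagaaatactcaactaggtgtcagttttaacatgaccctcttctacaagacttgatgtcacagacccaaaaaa
ZNF215: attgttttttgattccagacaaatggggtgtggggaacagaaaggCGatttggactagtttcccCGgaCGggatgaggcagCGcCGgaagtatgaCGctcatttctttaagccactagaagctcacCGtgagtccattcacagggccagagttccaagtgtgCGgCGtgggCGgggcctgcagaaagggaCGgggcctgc
The stretch before OR2D3 held 1 CG and had a GC content of 32%, and that before ZNF215 held 11 and had a GC content of 56%. The annotated TSS of OR2D3, at 6942233, is also the first base of its coding span. Its stretch thus lies before the start codon and may not be its promoter. No H3K4m3 peak, of either level, overlapped the TSS used here for any member, which is that of the canonical transcript where one is annotated. An H3K4m3 peak did cover the distant 5′ end of OR51B5, where other transcripts of that gene start, as described below.

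The marks of active promoters and enhancers were almost absent from the members. An H3K4m3 peak past the limits lay in the windows of 2 of 171 members (1.17%, 0.321 to 4.16%), against 67.6% of the other chr11 genes and 59% of all chr11 coding genes. H3K9Ac gave the same 2 members, OR51B5 and OR2D3, against 67.2% of the other genes and 58.6% of all. H3K4m1 gave 4 members (2.34%, 0.913 to 5.86%), against 71.5% and 62.5%. The difference in body length enters these shares, because a longer gene has a larger window. It does not enter the distance from the TSS, and there the members were also the farther ones, with a median of 295 kb to the nearest H3K4m3 peak against 0 kb for the other genes. For H3K9Ac the medians were 271 kb and 0 kb, and for H3K4m1 they were 171 kb and 0.979 kb.

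**Figure D1:**
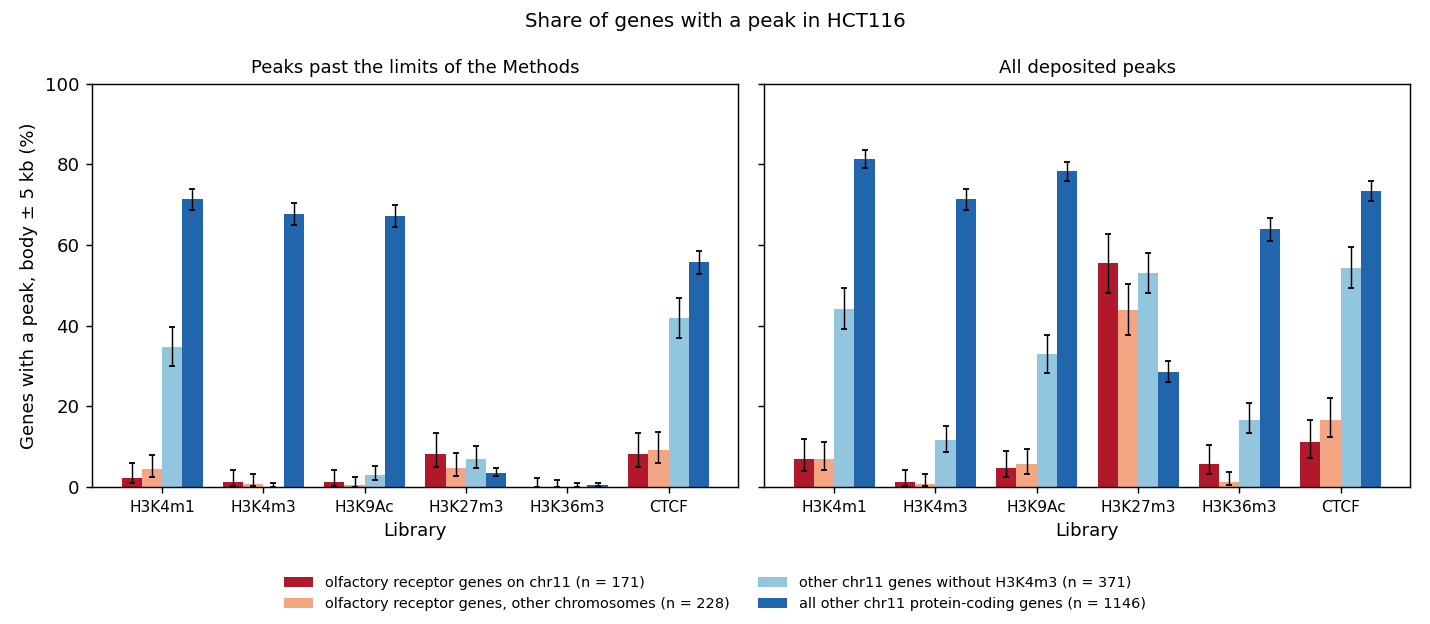
Share of genes (%, vertical axis) with a peak in the gene body or 5 kb on each side, for the 6 libraries (horizontal axis) and 4 gene sets, with 95% Wilson intervals as error bars. The left panel uses the peaks past the limits of the Methods and the right panel all deposited peaks. Olfactory receptor genes have almost no peaks of H3K4m1, H3K4m3 and H3K9Ac at either level, and 55.6% of those on chr11 have a deposited H3K27m3 peak.

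The near absence of active marks was shared with the rest of the family. Among 228 olfactory receptor genes on other chromosomes, 0.877% had H3K4m3 past the limits, 0.439% H3K9Ac and 4.39% H3K4m1, and among the pseudogenes of chr11 the shares were 0.521%, 1.04% and 3.65%. The intervals of the members and of these sets overlapped for each of the marks. A set of 371 other chr11 genes without H3K4m3 in the window, picked for that absence, still had H3K4m1 past the limits in 34.8% of its genes and a median TSS distance of 28.2 kb to such a peak. The members thus had H3K4m1 less often in this library than other genes without H3K4m3. The intervals, 0.913 to 5.86% and 30.1 to 39.8%, did not overlap, but they treat genes of a cluster as independent.

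Each of the active peaks past the limits in a member window could be named. The H3K4m1 peak 1628 bp from the TSS of OR52K1, a class I gene, was 566 bp wide with a fold enrichment of 3.88, and it was the nearest to any member. OR10V1, a class II gene, had an H3K4m1 peak of 3968 bp and a fold enrichment of 5.51, which began 3487 bp from its body. OR2D3 had all 3 active marks on the side of ZNF215, with a fold enrichment of 3.75 for H3K4m1 and 10.3 for H3K9Ac. OR51B5 had 3 H3K4m1 peaks, 1 H3K4m3 peak and 1 H3K9Ac peak within its annotated body, which is described below with its neighbours. Without the 3 members whose window holds the TSS of another kind of coding gene, 0 of 168 members had H3K4m3 or H3K9Ac past the limits (0 to 2.24%) and 2 had H3K4m1. These 3 include OR51B5, although its H3K4m3 and H3K9Ac peaks past the limits contained no TSS of such a gene. Both peaks covered the annotated 5′ end of OR51B5 itself. Among all deposited peaks H3K4m3 still gave 2 members, where all chr11 genes gave 62.3%. H3K4m1 rose to 12 (background 71.8%) and H3K9Ac to 8 (background 68.7%).

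H3K27m3 was the mark that most members carried, and it was weak. Past the limits 14 members had it (8.19%, 4.94 to 13.3%), against 4.18% of all chr11 coding genes and 3.58% of the others (2.65 to 4.82%). Among all deposited peaks 95 members had it (55.6%, 48.1 to 62.8%), against a background of 32% and 28.5% of the other genes. Of the 371 chr11 genes without H3K4m3, 7.01% had it past the limits (4.83 to 10.1%) and 53.1% among all peaks (48 to 58.1%), with intervals that overlapped those of the members. That comparison depends on body length, and windows set on the TSS gave another picture. Within 5 kb of the TSS a deposited peak lay at 55.6% of members (48.1 to 62.8%) and at 39.9% of the 371 genes (35 to 45%), with a background of 23.9%. Within 1 kb the shares were 48% (40.6 to 55.4%) and 26.1% (21.9 to 30.8%), with a background of 16.4%. In both TSS windows the intervals of the members and of these genes did not overlap. They treat genes of a cluster as independent, which these are not, so the lack of overlap does not measure that difference. Peak names in this list carry another sample prefix than those of the other lists, which name HCT116, so its origin in the same line rests on the label.

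Most members with a deposited H3K27m3 peak did not reach the q-value limit. By the highest −log10 q-value in its window, 24 of the 95 members lay between 1 and 2, 57 between 2 and 3, 14 between 3 and 4 and 0 above 4, with a median of 2.29. Just inside the limit of 3 were OR6X1 at 3.07, OR4B1 at 3.06 and OR52N2 at 3.02. Just outside were OR52E5, OR52E4 and OR8B4, each at 2.97. The count of 14 depended on the limit, and a limit of 2, chosen after seeing the data, gave 71 members and a limit of 4 gave 0. The limits of 2 and 4 were applied to members only, so no share over all chr11 coding genes stands beside these counts.

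**Figure D2:**
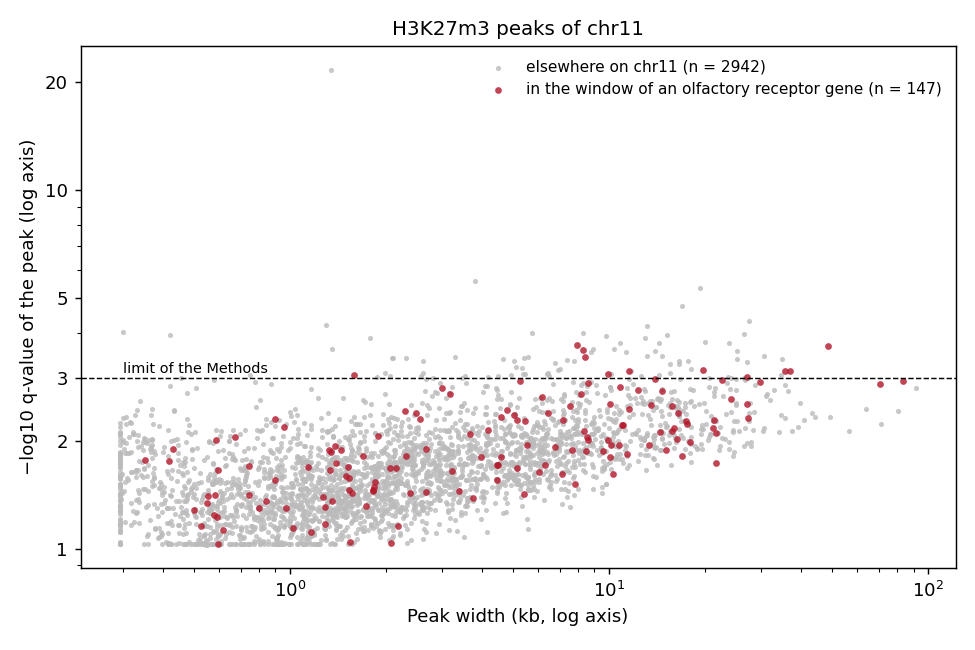
Width (kb, log axis) and −log10 q-value (log axis) of each deposited H3K27m3 peak of chr11. Red points are the 147 peaks in the window of an olfactory receptor gene, grey points the other 2942, and the dashed line is the limit of 3. The red points reach a width of 83.2 kb and the grey points 91435 bp, and no red point exceeds a −log10 q-value of 3.71.

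The H3K27m3 peaks over the members were wide, although a wider peak is also more likely to reach a gene window. The 11 peaks past the limits had a median width of 11580 bp and fold enrichments between 3.65 and 4.04, and the 77 peaks elsewhere on chr11 had a median width of 7790 bp and fold enrichments between 2.22 and 4.51. The widest of all 88 on chr11, 48666 bp at chr11:5739005-5787670, contained OR52P1, OR56B1 and OR52N4, a run of class I genes. Its fold enrichment was 3.96. Another wide one, 35653 bp at chr11:5146213-5181865, contained OR52A5 and OR52A1, and one of 37025 bp at chr11:124434740-124471764 contained OR8A1, the last member on the chromosome. OR51V1 had the highest fold enrichment of the 11 peaks, 4.04, in a peak of 8271 bp over its TSS and coding span, and OR56A5 the highest −log10 q-value, 3.71. The other members past the limits were OR52K1, OR52N2, OR52E8 and OR56A3 of class I and OR4B1 and OR6X1 of class II. By −log10 q-value the first peak in a member window ranked 20 among the 88, whereas 4 of the 10 widest lay in a member window. An even wider peak of 83.2 kb at chr11:5051814-5135012, over OR52J3, OR52E2 and OR52E1, stayed below the limit at a −log10 q-value of 2.94. The widest deposited H3K27m3 peak outside the member windows of chr11 was wider still, at 91435 bp.

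H3K27m3 was unevenly spread over the family. Grouping members no more than 500 kb apart gave 11 clusters, which together spanned 5.98 Mb. Deposited H3K27m3 peaks covered 31.3% of the bases of the clusters and 9.16% of the rest of chr11, and peaks past the limits covered 4.35% and 0.625%. Bins of 100 kb showed the same, with a mean of 31.5% covered in the 66 bins with a member TSS and 11.3% in the 845 other bins without an H3K4m3 peak. The medians were 21.4% and 0%, and the median GC contents of these bins were 38.2% and 38.7%. Of the 66 bins with a member TSS, 9 held an H3K4m3 peak.

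Single clusters lay far from that mean. The cluster from OR6X1 to OR8A1, with 22 class II genes near the end of the long arm, was covered to 65.6%, and all 22 members had a deposited peak. The cluster from OR9Q1 to OR5B21 had a peak at all 13 members and was covered to 29.5%, with none past the limits. All 4 members from OR5P2 to OR10A3 (61.3% covered) and 7 of 8 from OR2AG2 to OR2D3 (30.2% covered) had one as well. The largest cluster, from OR52B4 to OR52W1 with all 55 class I genes in 1.84 Mb, was covered to 55.2%, and 45 of its members had a deposited peak and 11 a peak past the limits.

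By contrast the second largest cluster was almost empty. From OR4A16 to OR5AK2, 48 class II genes in 1.66 Mb on the long arm near the centromere, deposited H3K27m3 peaks covered 0.173% of the bases and reached 0 of 48 members. The median TSS there lay 673 kb from the nearest deposited H3K27m3 peak. No deposited peak of H3K36m3, H3K9Ac or H3K4m3 lay in this cluster either, and its CTCF peaks numbered 2 past the limits and 7 in all. Its GC content was 36.4%, the lowest of the 11 clusters. The small clusters across the centromere, on the short arm, were also poor, with 0 of 2 members from OR4C13 to OR4C12, 0 of 3 from OR4A5 to OR4C46 and 3 of 7 from OR4B1 to OR4A47. From OR5AN1 to OR10V1 the count was 1 of 8, and the lone OR2AT4 had none. OR4C46 was the farthest member from a peak past the limits of H3K4m1, H3K4m3, H3K9Ac, H3K27m3 and CTCF, at 3.38, 2.06, 3.51, 3.27 and 1.97 Mb, whereas for H3K36m3 the farthest was OR4B1 at 14.4 Mb.

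**Figure D3:**
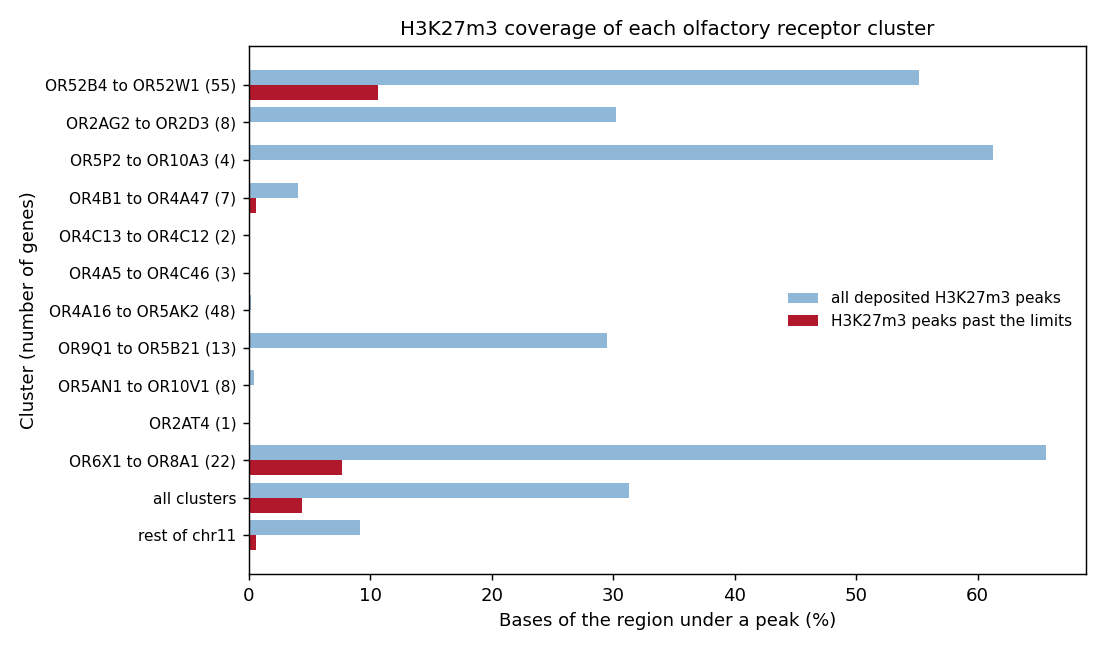
Bases of each olfactory receptor cluster under an H3K27m3 peak (%, horizontal axis), for all deposited peaks (blue) and those past the limits (red), with clusters in order along chr11, the number of genes in parentheses and the pooled values in the last rows. Coverage ranges from 0% to 65.6% among clusters, and the 48 genes from OR4A16 to OR5AK2 have 0.173%.

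Repeated sequence was looked at as a value beside these counts, since reads that fit several places are hard to place. A second copy of the coding span in hg19, at 95% identity or more over at least 50% of its length, was found for 22 of 171 members. Of the 48 members from OR4A16 to OR5AK2 5 had such a copy, and of the 22 members from OR6X1 to OR8A1 5 had one. In the small clusters near the centromere the counts were 1 of 2 from OR4C13 to OR4C12, 2 of 3 from OR4A5 to OR4C46 and 1 of 7 from OR4B1 to OR4A47. In the class I cluster the count was 4 of 55. Of the 22 members with a copy 13 had a deposited H3K27m3 peak, 0 of them past the limits. The part of read placement in the uneven spread was not tested beyond these counts.

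The spread followed the gene classes and families as far as these followed the clusters. Among class I members 45 of 55 had a deposited H3K27m3 peak (81.8%, 69.7 to 89.8%), and among class II members 50 of 116 (43.1%, 34.5 to 52.2%). Past the limits the counts were 11 of 55 (20%, 11.6 to 32.4%) and 3 of 116 (2.59%, 0.883 to 7.33%). Class I genes sit in 1 cluster, so class and position cannot be told apart. By family, all 6 OR56, 25 of 27 OR52, 14 of 16 OR10 and all 5 OR6 genes had a deposited peak, while 8 of 35 OR5 and 4 of 25 OR4 genes did. On other chromosomes the mark was also uneven, with a deposited H3K27m3 peak at 13 of 13 olfactory receptor genes of chromosome 17, 20 of 26 of chromosome 9 and 10 of 63 of chromosome 1.

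The class I cluster held a long interval without H3K27m3, and H3K36m3 lay there instead. OR51B5, a class I gene on the minus strand annotated at chr11:5324674-5526882, has the longest body of all members, 202209 bp, because its annotated transcripts start 162 kb before the canonical TSS at 5364754. The H3K4m3 peak at chr11:5525323-5527048, enriched 15-fold at a −log10 q-value of 46.1, covered this distant 5′ end, together with an H3K9Ac peak of 6765 bp and a fold enrichment of 7.98. From there to the other end 6 deposited H3K36m3 peaks covered 88.8% of the body, between 5313769 and 5526635, a stretch of 213 kb. H3K27m3 covered 0% of it, and its nearest deposited peaks lay 48.9 kb before and 17.3 kb after the body.

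The H3K36m3 peaks of this interval had fold enrichments between 3.28 and 4.52 and −log10 q-values between 2.35 and 4.99, all short of the limits. Those limits left 4 H3K36m3 peaks on the whole of chr11, and 0 of 171 members had one past them (0 to 2.2%, background 0.456%). Among the 1949 deposited H3K36m3 peaks of chr11, 47 had a fold enrichment as high as the highest of these, and 1 of the peaks ranked 5 by width. H3K36m3 was found in the windows of 10 members among all deposited peaks (5.85%, background 56.4%, other genes 64%). Of these, 9 lay in or at the end of the interval: OR51B4, OR51B5, OR51B2, OR51B6, OR51M1, OR51Q1, OR51I1, OR51I2 and OR52D1. None of the 9 had a deposited H3K27m3 peak. Of the other 46 class I members, 45 had H3K27m3, and OR52H1 had neither mark. OR52W1, at the end of the cluster, had both.

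The receptor genes under this H3K36m3 interval were not all oriented as OR51B5. Of the 7 members within its body, 5 are on the plus strand and 2 on the minus strand, and all 7 had H3K36m3. H3K4m1 and H3K9Ac peaks were scattered along the same body, 24 and 16 in number, covering 15.4% and 16.7% of it. These include 3 H3K4m1 peaks past the limits and the H3K9Ac peak at the distant 5′ end. The rest stayed below the limits. The canonical TSS of OR51B5 and those of the 7 members within lay under no H3K4m3 peak. The long transcripts of OR51B5 share this span with those of neighbouring annotated genes, and the peak lists do not say which transcript the marks belong to.

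**Figure D4:**
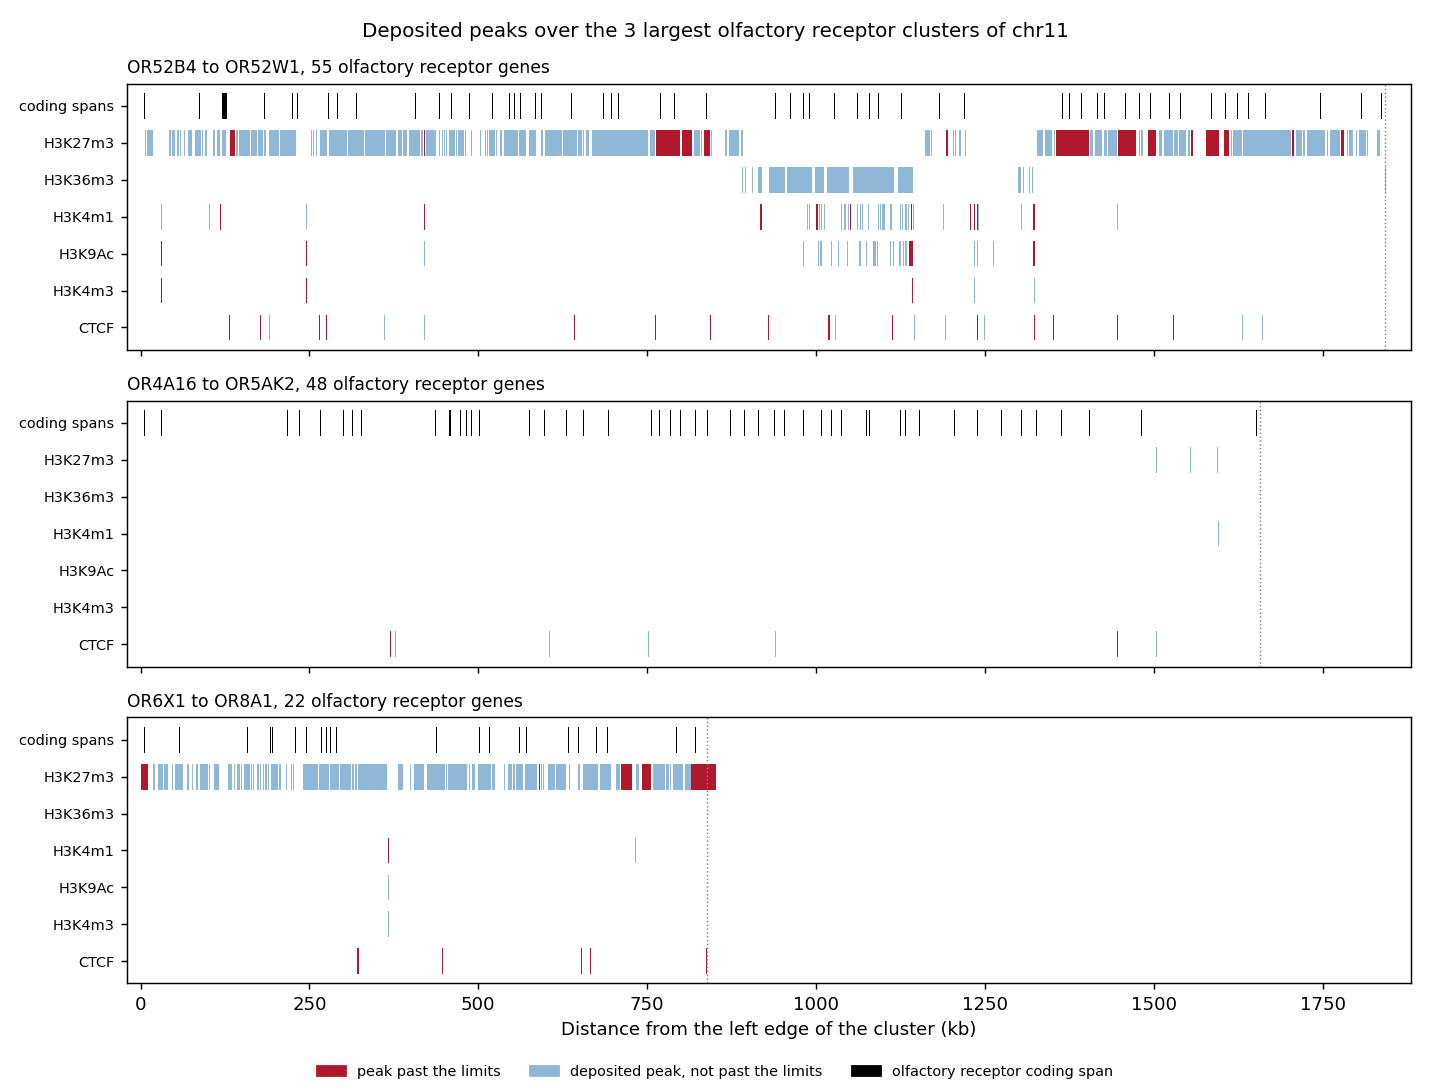
Deposited peaks along the 3 largest olfactory receptor clusters, drawn to one scale from the left edge of each cluster (kb, horizontal axis), with the coding spans of the members in black, peaks past the limits in red and other deposited peaks in blue. The upper cluster, with 55 members, is covered by H3K27m3 to 55.2%, with its longest gaps, 268 and 106 kb, the first of which holds the H3K36m3 peaks over OR51B5 and its neighbours. The middle cluster, with 48 members, has 3 H3K27m3 peaks, and the lower one, with 22 members, is covered to 65.6%.

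Of the 8 H3K4m3 peaks past the limits inside the clusters, 1 was that at the distant 5′ end of OR51B5, most of the others contained the TSS of genes of other families, and a pair near OR4D9 contained no coding TSS. In the class I cluster H3K4m3 peaks contained the TSS of TRIM21, with a fold enrichment of 16.4, and of TRIM68, with 12.7, both of a family of ubiquitin ligases. In the cluster from OR5AN1 to OR10V1 they contained the TSS of OSBP, with a fold enrichment of 26.7, and of PATL1, with 25.1. The clusters had 1.34 H3K4m3 peaks per Mb past the limits and the rest of chr11 5.3. Beside the cluster from OR6X1 to OR8A1, the H3K4m3 peak at ZNF202 ended 6.46 kb before the first window and had a fold enrichment of 21.3. OR6X1, the first member, lay under an H3K27m3 peak of 9896 bp past the limits. The peak after that cluster, at TBRG1, lay 34.2 kb away. RRM1 stood 266 kb before the class I cluster and FHIP1B 28.6 kb after it.

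**Figure D5:**
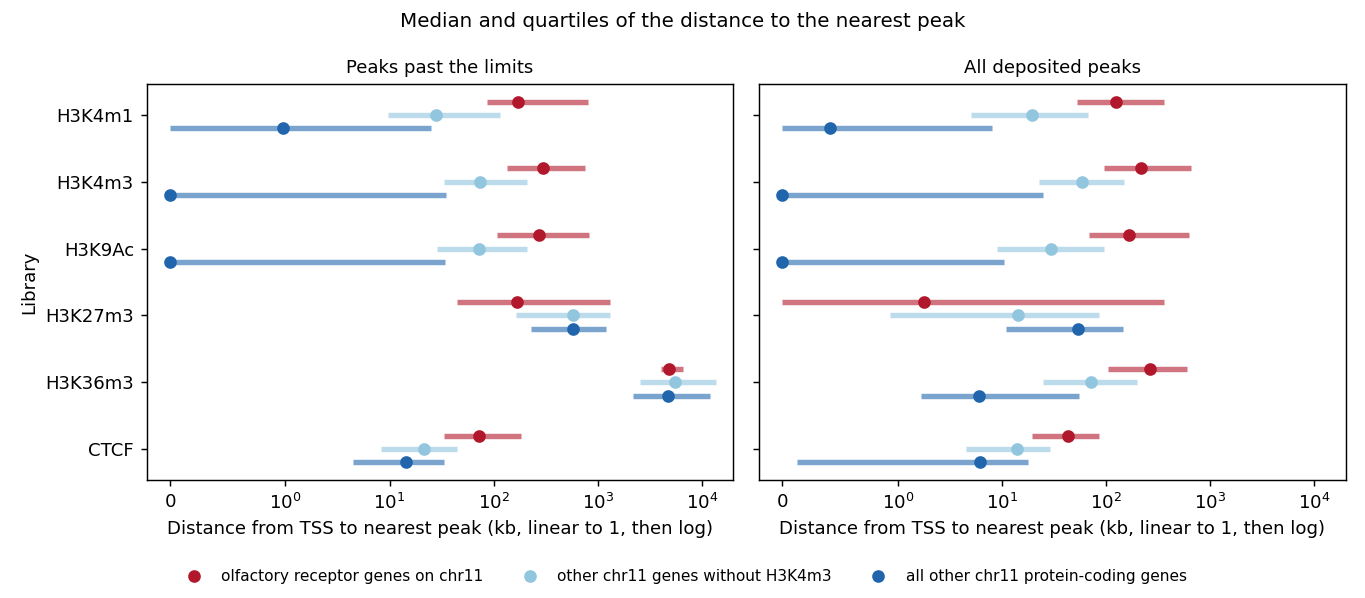
Distance from the TSS to the nearest peak (kb, horizontal axis, linear up to 1 and logarithmic beyond) for the 6 libraries, with dots at the median and bars from the lower to the upper quartile. Olfactory receptor genes of chr11 (red) have larger medians than other genes (blue shades) for H3K4m1, H3K4m3, H3K9Ac and CTCF peaks at both levels. For H3K27m3 their medians are smaller, 169 kb past the limits and 1.77 kb for all deposited peaks. The smaller distance holds for the 55 class I members, with medians of 42.9 and 0 kb, and not for the 116 class II members. Class II medians are 923 and 63 kb, against 575 and 54.3 kb for the other coding genes of chr11.

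CTCF was present in the clusters, at a lower density than over the rest of chr11 as a whole. Past the limits 14 members had it in the window (8.19%, 4.94 to 13.3%), against 49.6% of all chr11 coding genes and 55.8% of the others, and the olfactory receptor genes of other chromosomes had 9.21% (6.1 to 13.7%). Among all deposited peaks the count was 19 (11.1%, background 65.3%). The clusters held 4.85 CTCF peaks per Mb and the rest of chr11 10.2, and the median TSS distance was 71.8 kb against 14.5 kb. In bins of 100 kb the difference from stretches without H3K4m3 was small, with a CTCF peak past the limits in 39.4% of the bins with a member TSS and in 37.8% of the other bins without H3K4m3. These sets are not matched, because 9 of the 66 bins with a member TSS held an H3K4m3 peak. Of the other bins with H3K4m3, 83.8% had CTCF. Class I members had it more often, 10 of 55 (18.2%, 10.2 to 30.3%) against 4 of 116 (3.45%, 1.35 to 8.53%). The peaks themselves had a median fold enrichment of 11.1 for the 13 in member windows and 10.7 for the 1297 others on chr11.

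OR52N2 was the only member whose TSS lay within a CTCF peak past the limits, at chr11:5829552-5830188 with a fold enrichment of 9.43. The same TSS, at 5830154 on the plus strand, was covered by an H3K27m3 peak of 27000 bp and, below the limits, by an H3K4m1 peak with a fold enrichment of 3.53. OR51D1 had a CTCF peak 85 bp from its TSS, with a fold enrichment of 9.2. The strongest was at OR8B3, with 13.5, a gene whose coding span has a copy at OR8B2 with 98.7% identity. OR52E4 and OR52E5 shared 1 peak between them, as did OR51B5 and OR51M1. Of all members 5 had both CTCF and H3K27m3 past the limits, with a background of 2.43%.

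The sequence under these CTCF peaks was compared with the 12-base core of the CTCF motif on both strands. An exact match was found in 8 of the 29 peaks of the clusters (27.6%, 14.7 to 45.7%) and in 302 of 1281 elsewhere on chr11 (23.6%, 21.3 to 26%). With 1 difference allowed the shares were 79.3% and 66.7%. The best match of each of 5 peaks is shown in capitals with 9 bases on each side, read 5′ to 3′ on the strand of the match (hg19), for the 3 exact matches in member windows, for the peak over the TSS of OR52N2 and for the peak shared by OR52E4 and OR52E5.
OR52K1, core at chr11:4514661-4514672, minus strand: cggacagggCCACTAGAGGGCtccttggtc
OR5A2, core at chr11:59197584-59197595, minus strand: ggcatatttCCACTAGGTGGCagcaacatt
OR8A1, core at chr11:124456311-124456322, minus strand: ggcaagctgCCACCAGGTGGCagcagcaga
OR52N2, core at chr11:5829851-5829862, minus strand: aaagagcctCCAGCAGGTGGGgctaaagga
OR52E4 and OR52E5, core at chr11:5912632-5912643, minus strand: ttatttttaCCACTAGATGTCagtcatgct
The matches at OR52N2 and at the shared peak had 1 difference from the core each. A match describes the letters of the peak and was not taken as a binding site.

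Past the limits 146 of 171 members had none of the 6 libraries' peaks in the window, where 23.9% of all chr11 coding genes had none. Among all deposited peaks 59 members had none, with a background of 8.28%. Of the 25 members with any peak past the limits (background 76.1%), 17 had a histone mark (background 71.1%) and 4 an active mark (background 69%). An active mark together with H3K27m3 was found at 1 member, OR52K1, with a background of 2.13%. The longer bodies of other genes enter these backgrounds too.

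Other genes that olfactory receptors depend on were compared by H3K4m3 past the limits within 1 kb of the TSS, which 59.1% of all protein-coding genes had. Of 3 genes for carrying receptors to the cell surface, REEP1 had a peak, with a fold enrichment of 21.1, and RTP1 and RTP2 had none. Of 13 genes of signal transduction 4 had one: GNB1 (40.9), ADCY3, the adenylyl cyclase (32.8), GNAL, the olfactory G protein (24.4), and RIC8B (19.5). The olfactory channel subunits CNGA2, CNGA4 and CNGB1 and the chloride channel ANO2 had none. CNGA4 lies on chr11 just after the class I cluster, and the H3K4m3 peak in its window, with a fold enrichment of 14.7, is the one at the TSS of FHIP1B. That peak, at chr11:6254974-6257244, also overlaps the annotated body of CNGA4, which begins at 6255995. OMP, also on chr11, had an H3K4m1 peak with a fold enrichment of 6.66 in its window and no H3K4m3. Of 14 genes for nuclear control of receptor choice 12 had H3K4m3, among them LDB1 (22.4), LHX2 (12.5), the demethylase gene KDM1A (25.1), SMCHD1 (32.9) and CBX5 (18.1), and EMX2 and EBF1 had none. Many of the last group also serve other tissues.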

How the data were processed

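Peak lists of 6 PIXUL-ChIP-seq libraries of HCT116 were used, with 1 library per antibody. The labels describe 7 libraries, and H3K27Ac was not analysed here. Reads were mapped by the authors to hg19 (BWA 0.7.12), and MACS2 was run in its broad mode, with a cutoff of 0.1, on each library, while the submitters' processing notes name MACS 1.4.2, SAMtools 0.1.19 and bcl2fastq 2.20.0.442. The deposited fold enrichment is a linear ratio to MACS2's local background. The significance columns that the authors deposited are −log10 values, of the p-value and of the q-value, and each belongs to a whole peak. Peak names of the H3K27m3 list carry another sample prefix than those of the other 5, which name the cell line. The label was followed, and whether this list comes from the same line was not tested, although each H3K27m3 result and its contrast with H3K36m3 rests on it. Read depth is unknown from the lists, so a missing peak means that none was called at this depth.

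Gene bodies, canonical transcripts and symbols came from GENCODE release 44 lifted to hg19, and sequence from GRCh37. Windows were the gene body and 5 kb on each side, and intervals were Wilson intervals. Copies of coding spans were searched with minimap2 2.31. Overlap and distance steps were tested on simulated intervals. Other steps used Python 3.11.15, numpy 2.4.6, pandas 2.3.3 and scipy 1.17.1. No test over samples could be made, because each mark has 1 library. The members, lists and comparisons were chosen with earlier results of these data known. Named members were those with a histone peak past the limits, with any peak at the TSS or coding span, nearest to or farthest from a peak, and first or last in a cluster. OR52H1, OR51D1, OR8B3, OR10Q1, OR8B4, the OR51B5 interval and other members named with deposited or CTCF peaks were chosen after their values were seen. Alternatives were other peak limits, windows, distances and numbers of differences in the CTCF core.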

Additional observations from a re-analysis of the deposited data

How the results depend on the processing

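Of 52 recomputed values 24 stayed within 1.5 times a count or within the interval of a median or share, and 28 moved. No paired analysis was possible because there is a single library for each mark. With all deposited peaks, members with a peak numbered 12 for H3K4m1, 8 for H3K9Ac, 95 for H3K27m3 and 10 for H3K36m3. Of all chr11 coding genes 71.8%, 68.7%, 32% and 56.4% had such a peak. Over the gene body alone members with a peak past the limits numbered 1, 1, 1 and 4 for H3K4m1, H3K4m3, H3K9Ac and CTCF. Of all chr11 coding genes 53.6% had H3K4m1 and 55.5% H3K4m3 there. With 20 kb on each side such members numbered 14 for H3K4m1, 6 for H3K4m3, 7 for H3K9Ac, 28 for H3K27m3 and 31 for CTCF. That window was counted for members only, so these counts cannot be set against all chr11 coding genes. Within 5 kb of the TSS such members numbered 1 for H3K4m3, 1 for H3K9Ac and 8 for CTCF, where 54.7% of all chr11 coding genes had H3K4m3. Leaving out members with another coding TSS in the window gave 2 for H3K4m1 and 0 for H3K4m3 and H3K9Ac. That step also left out OR51B5, whose H3K4m3 and H3K9Ac peaks past the limits lie at its own annotated 5′ end. Limits on the −log10 q-value of 2 and 4, chosen after seeing the data, gave 71 and 0 members with H3K27m3. They too were applied to members only. With all deposited peaks the median TSS distance was 125 kb to H3K4m1, 218 kb to H3K4m3, 165 kb to H3K9Ac, 1.77 kb to H3K27m3, 266 kb to H3K36m3 and 43.1 kb to CTCF. With 1 difference allowed the CTCF core was found in 79.3% of the peaks of the clusters. H3K36m3 past the limits rests on 90 peaks of the whole genome, and the read depth behind each list is unknown. The cause of these changes was not tested beyond the wider window or lower limit itself.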
